A study of Mus musculus with 12 samples.

Results

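The 6 genes described here, Ms4a4b, Ms4a4c, Ms4a6b, Ms4a6c, Ms4a6d and Ms4a7, belong to the membrane-spanning 4-domains subfamily A (MS4A). They were taken from the 35492 gene symbols of the tables by name, and all 6 had a mean of at least 1 TPM (transcripts per 1e+06 transcripts) in at least 1 group. They were selected on their measured TPM levels across the 4 groups, so their levels and differences are given as a description and without a test. MS4A proteins are small tetraspan proteins that sit in the plasma membrane or in endosomes beside larger receptors and tune their signalling. The best known are Ms4a1, which encodes the B cell antigen CD20, and Ms4a2, which encodes the beta chain of the high-affinity IgE receptor of mast cells. In mouse CD4+ T cells Ms4a4b and Ms4a6b restrain or adjust activation, and the Ms4a4b protein associates with GITR, a co-stimulatory receptor. Ms4a6d, Ms4a7 and their relative Ms4a4a are known from macrophages and monocytes, and the Ms4a4a protein associates with the fungal receptor dectin-1 (Clec7a).

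RNA was sequenced from CD4+ T cells of C57BL/6J mice of 7 weeks, in 4 groups of 3 libraries. Tfh_TILS were CD4+ CXCR5+ PD1+ cells sorted out of tumors grown from MC38, a mouse colon carcinoma line, and were not cultured. Tfh_OTII were follicular helper (Tfh) cultures started from naive CD4+ cells of OT-II mice, whose T cell receptor transgene recognises an ovalbumin peptide. Tfh_Vitro were the same kind of culture started from wild-type mice. Both were grown on plates coated with antibodies to CD3 and CD28, with IL-6 at 50 ng/ml, IL-21 at 50 ng/ml and blocking antibodies to IL-4, IFNγ and TGFβ at 10 µg/ml. Th1_Vitro were wild-type naive cells driven to the T helper 1 state with IL-12 at 10 ng/ml and a blocking antibody to IL-4 at 10 µg/ml. The titles give 48 h for Tfh_OTII and 24 h for Tfh_Vitro and Th1_Vitro, whereas the treatment protocol gives 48 h for the cultures. Genotype and time therefore cannot be told apart between Tfh_OTII and Tfh_Vitro, nor sorting from a tumor and culture between Tfh_TILS and Tfh_Vitro. Nothing in the labels says that the 3 libraries of a group came from separate animals or cultures, so every spread given here is the spread between libraries and may be technical.

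The tables hold TPM only, so the number of reads behind a value is unknown. Genes listed at 0 made up 14.5 to 18.0% of all symbols in Tfh_TILS, 9.92 to 23.9% in Tfh_OTII, 8.20 to 13.7% in Tfh_Vitro and 19.5 to 41.4% in Th1_Vitro. Size factors by the median-of-ratios method were 0.472 to 0.668 in Th1_Vitro and 1.06 to 1.44 in the other libraries, so each difference between Tfh_Vitro and Th1_Vitro is given both on TPM as deposited and on values divided by these factors, called scaled below. Levels in TPM are as deposited. Library 2 of Tfh_TILS held the highest Tfh_TILS value of all 6 genes. Over all symbols the Tfh_TILS libraries were about equally alike, with Spearman correlations of 0.865 to 0.869 between them. The CD4+ T cell identity was visible in each library: the 12 genes of a T cell list (Cd3e, Cd4, Thy1 and others) were all above 1 TPM in every group, and their summed level was 1838 to 3140 TPM in Tfh_TILS, 2356 to 2598 TPM in Tfh_OTII, 2268 to 2724 TPM in Tfh_Vitro and 609 to 1495 TPM in Th1_Vitro. Pdcd1, which encodes the PD1 protein used in the sort, was at 26.2, 40.1 and 28.0 TPM in Tfh_TILS, 11.9, 15.2 and 14.3 TPM in Tfh_OTII, 19.1, 15.98 and 21.4 TPM in Tfh_Vitro and 3.29, 7.41 and 14.3 TPM in Th1_Vitro. Of 6 follicular helper genes, 2 rose in Tfh_TILS relative to Tfh_Vitro and 1 fell by limma, a test explained below. Beside them, 1.15% of all genes were called higher and 0.944% lower. The follicular helper list summed to 332, 570.1 and 318 TPM in Tfh_TILS, against 259, 242 and 282 TPM in Tfh_Vitro. The follicular helper genes that rose were Bcl6, the factor that sets up the follicular helper state, and Icos, a co-stimulatory receptor. They averaged 14.5 and 225 TPM in Tfh_TILS and 6.09 and 65.5 TPM in Tfh_Vitro (adjusted p = 0.0302 and 0.0331 by limma). The cytokine gene Il21 fell to 9.25, 5.28 and 6.14 TPM in Tfh_TILS, against 97.8, 92.8 and 75.1 TPM in Tfh_Vitro (adjusted p = 0.000938 by limma). The count that rose was 0 without Tfh_TILS library 2 or 3, any 1 Tfh_Vitro library or Tfh_OTII library 2 or 3, while 1 gene fell under all 18 alternatives run.

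The 6 genes lie within 283811 bases of chromosome 19 (GENCODE M21 on GRCm38, 11321039 to 11604849), in a cluster of 19 MS4A genes. Ms4a7 is on the minus strand at 11321039 to 11336146. It is followed on the plus strand by Ms4a4a, then by Ms4a4c at 11404770 to 11427246, Ms4a4b at 11443553 to 11467055, Ms4a6c at 11469366 to 11482192 and Ms4a6b at 11516512 to 11531256. After Ms4a4d, Ms4a6d closes the stretch on the minus strand at 11586604 to 11604849. The genes of the plus strand resemble each other, which shows in the starts of the transcripts as RefSeq gives them on GRCm38.p6. The pairs below are printed because neighbours that share a large part of this window differed in level across the 4 groups. Each window runs from 250 bases before to 50 bases after the start, on the plus strand and 5′ to 3′, and capitals mark runs of at least 12 bases that are identical in the aligned pair.

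Ms4a4c, chr19:11407411-11407710: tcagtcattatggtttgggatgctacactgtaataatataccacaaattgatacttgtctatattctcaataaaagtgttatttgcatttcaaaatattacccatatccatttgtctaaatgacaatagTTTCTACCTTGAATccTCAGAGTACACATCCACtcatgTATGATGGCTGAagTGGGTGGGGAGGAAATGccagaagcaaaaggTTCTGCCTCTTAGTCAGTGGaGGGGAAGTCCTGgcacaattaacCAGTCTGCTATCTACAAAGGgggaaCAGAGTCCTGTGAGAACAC

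Ms4a4b, chr19:11443308-11443607: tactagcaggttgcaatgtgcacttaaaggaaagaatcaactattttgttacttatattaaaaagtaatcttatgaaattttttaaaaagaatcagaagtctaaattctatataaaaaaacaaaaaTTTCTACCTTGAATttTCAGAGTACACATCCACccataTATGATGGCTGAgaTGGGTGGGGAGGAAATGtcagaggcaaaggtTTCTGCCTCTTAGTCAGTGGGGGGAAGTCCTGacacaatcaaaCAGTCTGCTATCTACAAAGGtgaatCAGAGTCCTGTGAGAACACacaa

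Ms4a6c, chr19:11469118-11469417: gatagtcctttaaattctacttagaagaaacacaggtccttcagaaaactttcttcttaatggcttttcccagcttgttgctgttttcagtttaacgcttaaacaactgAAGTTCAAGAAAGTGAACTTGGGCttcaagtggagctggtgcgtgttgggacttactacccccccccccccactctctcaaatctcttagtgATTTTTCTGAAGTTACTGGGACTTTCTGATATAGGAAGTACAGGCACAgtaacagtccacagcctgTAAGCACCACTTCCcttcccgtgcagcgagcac

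Ms4a6b, chr19:11518309-11518608: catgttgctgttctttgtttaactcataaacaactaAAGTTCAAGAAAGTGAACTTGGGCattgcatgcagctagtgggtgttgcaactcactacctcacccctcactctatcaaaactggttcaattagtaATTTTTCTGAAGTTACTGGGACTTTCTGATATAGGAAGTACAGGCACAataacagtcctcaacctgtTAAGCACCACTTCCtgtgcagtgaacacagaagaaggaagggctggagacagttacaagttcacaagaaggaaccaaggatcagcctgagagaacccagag

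Ms4a4c and Ms4a4b aligned over 178 columns, of which 159 (89.3%) were identical, and 131 bases fell in 8 capital runs. Ms4a6c and Ms4a6b aligned over 234 columns, of which 193 (82.5%) were identical, with 86 bases in 3 runs, the longest of 48 bases. No other pair of member promoters aligned over more than 26 columns. RefSeq windows were used for 5 of the 6 genes. Searched on both strands, the interferon-stimulated response element (GAAA, any 2 bases, GAAA), the GAS element bound by STAT factors (TTCNNNGAA), the PU.1 core (GAGGAAGT), the RUNX site (TGTGGTT) and the TCF/LEF site (CTTTGAT) had no match in these windows. Over 32851 promoters of the same length these letters were found in 3.44%, 8.30%, 3.20%, 5.27% and 3.73%, in that order.

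Likeness between the copies also bears on how reads were assigned. Of all stretches of 31 bases in the annotated transcripts, 15.6% of those of Ms4a4c, 14.2% of Ms4a6c, 7.71% of Ms4a6b, 5.10% of Ms4a6d, 3.86% of Ms4a4b and 0% of Ms4a7 occur in another MS4A gene, so part of the signal of the copies may be split among them. Ms4a6c shares 58.1% of its stretches with some other gene when both strands are compared. Most of these are shared with BE692007, an overlapping gene on the opposite strand that was not analysed here. The libraries were stranded, but whether strand was used to assign reads is not known here, so the level of Ms4a6c is uncertain. The pseudogene Gm5692, which overlaps Ms4a4c on the opposite strand, stayed at or below 1.11 TPM in all 12 libraries.

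**Figure D1:**
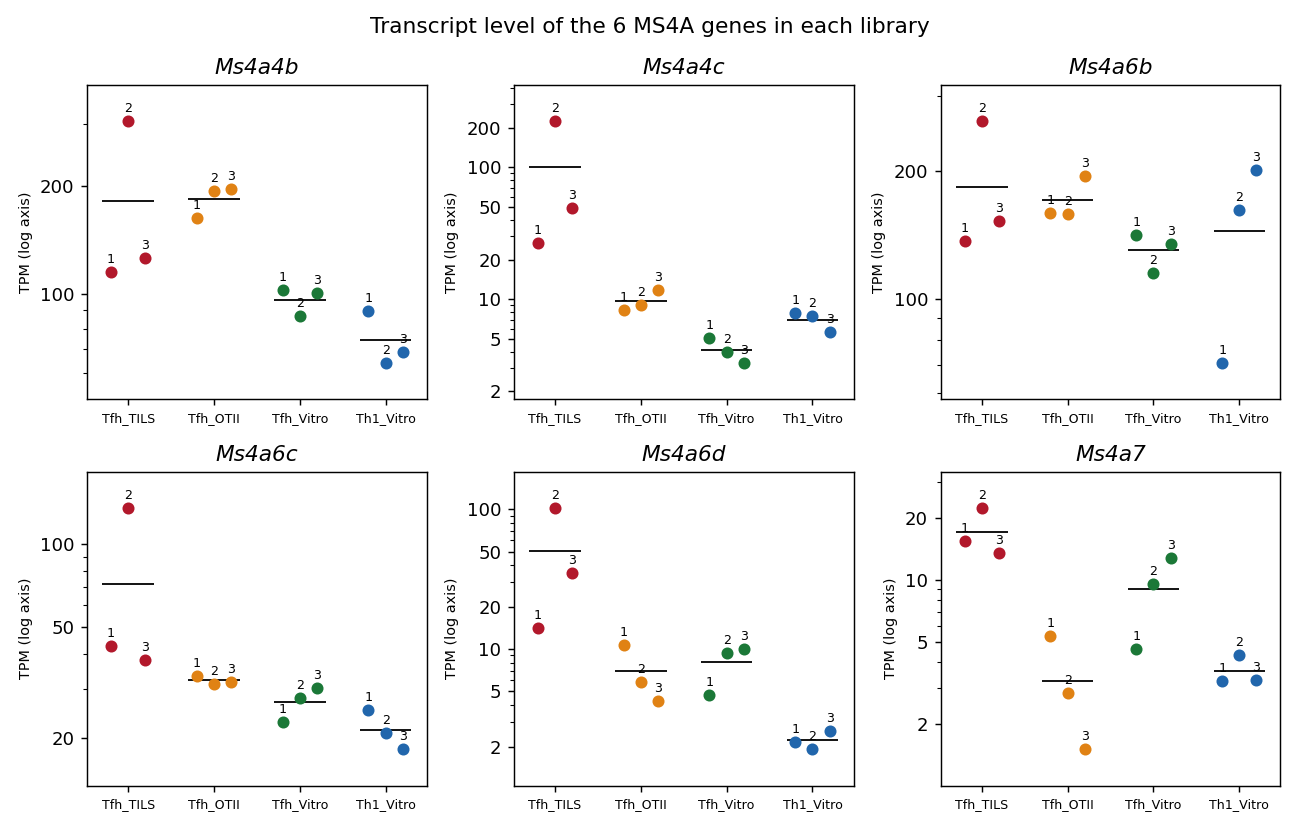
TPM of each of the 6 genes on a log axis, with 1 point per library (its number beside it) and a bar at the group mean (n = 3 libraries each). Ms4a4b and Ms4a6b were at 64.2 TPM or more in all 12 libraries. For Ms4a4c, Ms4a6c, Ms4a6d and Ms4a7 the lowest Tfh_TILS library lay above the highest culture library as deposited. For Ms4a6c this did not hold on scaled values. The share of all genes with Tfh_TILS above all cultures is not given here, so nothing is read from how many members did so.

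Ms4a4b, the family member best known from T cells, was abundant in every group and differed between the groups of Tfh cells. It was at 116, 305 and 126 TPM in the 3 Tfh_TILS libraries, at 163, 194 and 196 TPM in Tfh_OTII, at 102, 86.8 and 100.4 TPM in Tfh_Vitro and at 89.4, 64.2 and 68.9 TPM in Th1_Vitro. All Tfh_TILS and all Tfh_OTII libraries lay above all Tfh_Vitro libraries, while Tfh_TILS overlapped Tfh_OTII and Tfh_Vitro overlapped Th1_Vitro. On the log2(TPM + 1) scale the difference was 0.77 ± 0.32 (SE) for Tfh_TILS minus Tfh_Vitro and 0.93 ± 0.32 for Tfh_OTII minus Tfh_Vitro. Without Tfh_TILS library 2 the Tfh_TILS difference was 0.32 ± 0.22.

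Ms4a6b, a T cell relative of Ms4a4b that was about as abundant, showed less separation. Its levels were 137, 261 and 152 TPM in Tfh_TILS, 159, 158 and 195 TPM in Tfh_OTII, 141, 115 and 134 TPM in Tfh_Vitro and 70.8, 162 and 201 TPM in Th1_Vitro. Tfh_OTII lay above Tfh_Vitro in all libraries, by 0.39 ± 0.35 on the log2 scale, but Tfh_TILS overlapped Tfh_Vitro, with a difference of 0.44 ± 0.35. Th1_Vitro had the widest span of the 3 culture groups, with library 1 below every other library of the study and libraries 2 and 3 above every Tfh_Vitro library.

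Ratios within a library do not depend on how libraries are scaled, and on them Ms4a4b and Ms4a6b were lowest in Tfh_Vitro. Ms4a4b stood at 6.29 to 9.70% of the summed T cell list in Tfh_TILS, at 6.91 to 7.69% in Tfh_OTII, at 3.75 to 3.87% in Tfh_Vitro and at 4.61 to 14.7% in Th1_Vitro. Ms4a6b stood at 7.45 to 8.32% in Tfh_TILS, 6.28 to 7.50% in Tfh_OTII, 5.07 to 5.19% in Tfh_Vitro and 11.6 to 23.4% in Th1_Vitro. The T cell list itself was lower in Th1_Vitro, where these percentages were the most spread. The ratio of Ms4a4b to Ms4a6b was 0.830 to 1.17 in Tfh_TILS, 1.01 to 1.23 in Tfh_OTII and 0.723 to 0.754 in Tfh_Vitro, and it reached from 0.343 to 1.26 in Th1_Vitro.

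Ms4a4c, a close copy of Ms4a4b found in lymphoid and myeloid cells of the mouse, showed the widest range of the 6 genes as a fold, 67.7 between its highest and lowest library. It was at 26.7, 224 and 49.3 TPM in Tfh_TILS, at 8.32, 9.002 and 11.8 TPM in Tfh_OTII, at 5.08, 3.97 and 3.31 TPM in Tfh_Vitro and at 7.86, 7.46 and 5.65 TPM in Th1_Vitro. As deposited, no neighbouring groups overlapped, in the order Tfh_TILS, Tfh_OTII, Th1_Vitro and Tfh_Vitro. On scaled values Tfh_TILS stayed highest and Tfh_Vitro lowest, but Tfh_OTII (5.76 to 11.2) overlapped Th1_Vitro (8.46 to 15.8), whose mean was then the higher of the pair. The log2 difference was 3.74 ± 0.55 for Tfh_TILS minus Tfh_Vitro, 2.88 ± 0.30 without Tfh_TILS library 2, and 1.07 ± 0.55 for Tfh_OTII minus Tfh_Vitro. Its ratio to Ms4a4b, whose promoter window matches it in part, was 0.231, 0.735 and 0.390 in Tfh_TILS, 0.0464 to 0.0602 in Tfh_OTII, 0.0329 to 0.0497 in Tfh_Vitro and 0.0820 to 0.116 in Th1_Vitro. The lowest Tfh_TILS ratio was thus above every ratio in the cultures.

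Ms4a6c, the neighbour of Ms4a4b and known from myeloid cells, was at 42.7, 135 and 38.2 TPM in Tfh_TILS, at 33.5, 31.4 and 31.9 TPM in Tfh_OTII, at 22.7, 27.7 and 30.1 TPM in Tfh_Vitro and at 25.1, 20.8 and 18.1 TPM in Th1_Vitro. Tfh_TILS lay above Tfh_OTII and Tfh_OTII above Tfh_Vitro without overlap, by small steps apart from Tfh_TILS library 2, and Tfh_Vitro overlapped Th1_Vitro. The difference was 1.15 ± 0.37 on the log2 scale for Tfh_TILS minus Tfh_Vitro, 0.58 ± 0.22 without library 2, and 0.26 ± 0.37 for Tfh_OTII minus Tfh_Vitro. On scaled values Tfh_TILS (28.8 to 95.0) lay above Tfh_Vitro (20.7 to 24.1) but overlapped both Tfh_OTII (23.2 to 30.2) and Th1_Vitro (27.2 to 46.1), and Tfh_OTII overlapped Tfh_Vitro. Its ratio to Ms4a6b was 0.251 to 0.516 in Tfh_TILS, 0.164 to 0.211 in Tfh_OTII, 0.161 to 0.241 in Tfh_Vitro and 0.0903 to 0.355 in Th1_Vitro, so this pair was separated between Tfh_TILS and the Tfh cultures but not from Th1_Vitro.

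Ms4a6d, a macrophage protein of the endosomal and plasma membrane, was at 14.2, 103 and 35.1 TPM in Tfh_TILS, at 10.8, 5.83 and 4.25 TPM in Tfh_OTII, at 4.70, 9.38 and 10.1 TPM in Tfh_Vitro and at 2.16, 1.91 and 2.59 TPM in Th1_Vitro. As deposited, Tfh_TILS lay above the other groups and Th1_Vitro below them, and Tfh_OTII and Tfh_Vitro overlapped. On scaled values Tfh_TILS still lay above the cultures, and the lowest Tfh_OTII library (4.02) fell within Th1_Vitro (3.88 to 4.04). The log2 difference for Tfh_TILS minus Tfh_Vitro was 2.15 ± 0.55, and 1.43 ± 0.44 without Tfh_TILS library 2.

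Ms4a7, a gene known from macrophages, was the lowest of the 6 genes in the Tfh_TILS mean. It was also the one whose Tfh_TILS libraries lay closest, within 1.66-fold. It was at 15.5, 22.4 and 13.5 TPM in Tfh_TILS, 5.36, 2.83 and 1.51 TPM in Tfh_OTII, 4.64, 9.59 and 12.8 TPM in Tfh_Vitro and 3.23, 4.31 and 3.29 TPM in Th1_Vitro. The lowest Tfh_TILS library was just above the highest Tfh_Vitro library. The log2 difference was 0.92 ± 0.38 for Tfh_TILS minus Tfh_Vitro, 0.72 ± 0.42 without Tfh_TILS library 2, and -1.25 ± 0.38 for Tfh_OTII minus Tfh_Vitro, where the highest Tfh_OTII library passed the lowest Tfh_Vitro library. In the Tfh cultures its level moved with the share of genes listed at 0. That share was 9.92, 17.9 and 23.9% in Tfh_OTII and 13.7, 8.20 and 8.53% in Tfh_Vitro, libraries 1 to 3, so the libraries with more genes at 0 had less Ms4a7 in both groups apart from Tfh_Vitro libraries 2 and 3. Ms4a6d followed the same library order, and the part of this in the results was not tested.

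Counted over the 6 genes, 5 were higher in Tfh_TILS than in Tfh_Vitro without overlap of libraries and 0 were lower, with Ms4a6b the exception. Of all 23308 genes tested, 13.4% were higher without overlap in this comparison and 10.4% were lower. The members' median log2 difference was 1.04, beside 0.10 over all genes. In Tfh_OTII minus Tfh_Vitro, 4 genes (Ms4a4b, Ms4a4c, Ms4a6b and Ms4a6c) were higher without overlap and 0 lower, against 21.0% and 8.10% of all genes, and the medians were 0.32 for the members and 0.05 for all genes. After scaling, Ms4a4b and Ms4a4c were higher without overlap and Ms4a7 was lower, beside 12.1% of all genes higher and 10.7% lower. Both comparisons share the Tfh_Vitro libraries. The members were picked with these levels known, so nothing is read from the counts.

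Against Th1_Vitro the picture turned on the scaling. As deposited, Ms4a6d and Ms4a7 were higher in Tfh_Vitro than in Th1_Vitro without overlap and Ms4a4c was lower, while 55.6% of all genes were higher and 0.738% lower without overlap. The differences, Tfh_Vitro minus Th1_Vitro, were 1.44 ± 0.55 for Ms4a6d, 1.03 ± 0.38 for Ms4a7, 0.39 ± 0.32 for Ms4a4b, 0.32 ± 0.37 for Ms4a6c, -0.03 ± 0.35 for Ms4a6b and -0.65 ± 0.55 for Ms4a4c. Their median was 0.35, below the 0.78 over all genes. Scaling moved the median of all genes by 0.69, to 0.09, and the median of the members to -0.71. On scaled values Ms4a4b (-0.69), Ms4a4c (-1.60), Ms4a6b (-1.10) and Ms4a6c (-0.73) were lower in Tfh_Vitro than in Th1_Vitro without overlap, as were 13.2% of all genes, and Ms4a6d (0.60) was higher, as were 20.0% of all genes. Ms4a7 then overlapped, with a difference of 0.12. On both scalings Ms4a4c was lower in Tfh_Vitro than in Th1_Vitro and Ms4a6d higher, whereas Ms4a4b and Ms4a6c changed direction.

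**Figure D2:**
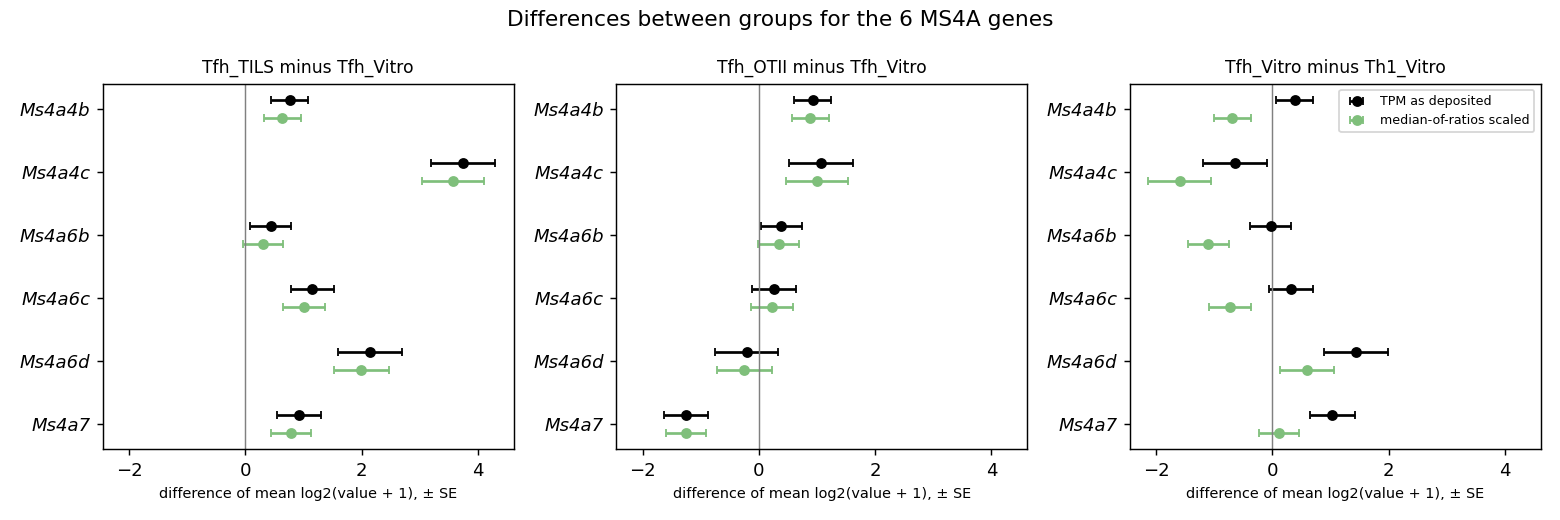
Difference of group means on the log2(value + 1) scale with its SE from the fit over all 12 libraries, for TPM as deposited (black) and scaled values (green), in the 3 comparisons. The 2 scalings lie close in the comparisons with Tfh_TILS and Tfh_OTII, and Ms4a4b and Ms4a6c change sign in the comparison with Th1_Vitro.

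As a make-up of the MS4A transcripts, which no scaling can move, Tfh_TILS had less of the sum in Ms4a4b and Ms4a6b than the cultures. These genes together made up 64.3 ± 9.30% of the summed TPM of the 6 genes in Tfh_TILS (SD, n = 3 here and below), 87.1 ± 2.10% in Tfh_OTII, 82.5 ± 3.76% in Tfh_Vitro and 85.8 ± 4.78% in Th1_Vitro, and the highest Tfh_TILS share, 71.8%, was below the lowest share in the cultures, 79.9%. The share of Ms4a4c was 13.6 ± 7.02% in Tfh_TILS, 2.37 ± 0.270% in Tfh_OTII, 1.51 ± 0.342% in Tfh_Vitro and 2.90 ± 1.04% in Th1_Vitro. The share of Ms4a6d was 7.42 ± 3.01% in Tfh_TILS, 1.75 ± 0.969% in Tfh_OTII, 2.95 ± 1.11% in Tfh_Vitro and 0.896 ± 0.181% in Th1_Vitro. Ms4a7 took nearly the same share in Tfh_TILS and Tfh_Vitro, 3.26 ± 1.13% and 3.28 ± 1.45%, against 0.820 ± 0.545% in Tfh_OTII and 1.46 ± 0.313% in Th1_Vitro. The sum itself was 605 ± 386 TPM in Tfh_TILS (383 TPM as the mean without library 2), 407 ± 30.8 TPM in Tfh_OTII, 275 ± 20.0 TPM in Tfh_Vitro and 253 ± 50.9 TPM in Th1_Vitro.

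**Figure D3:**
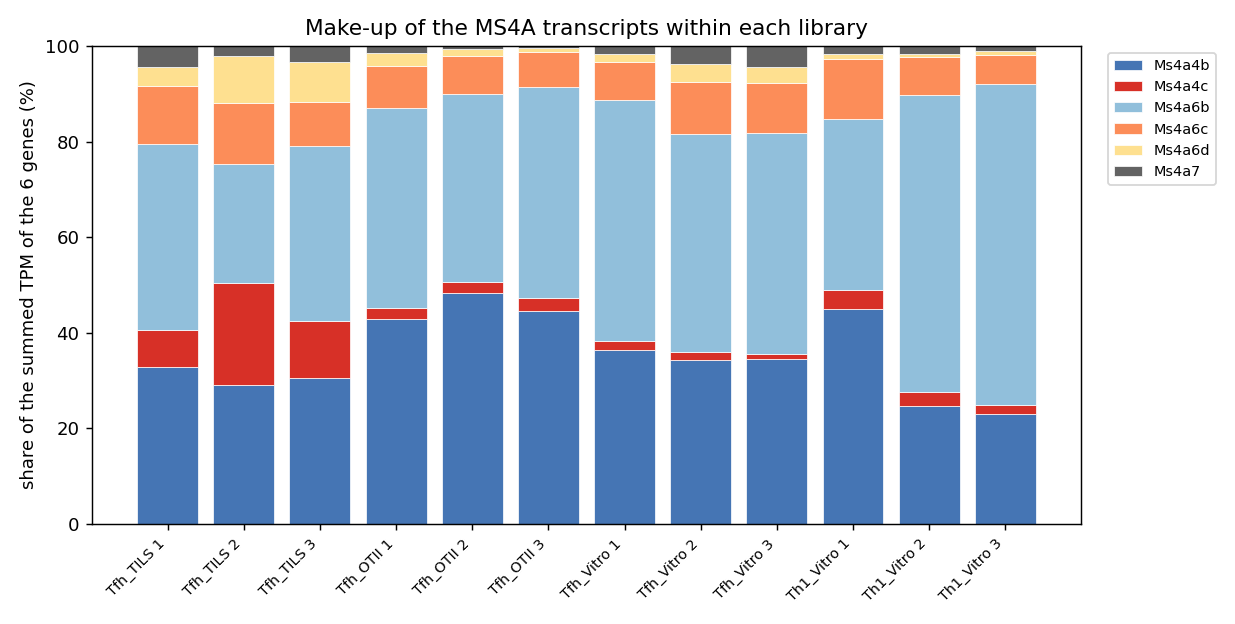
Share of each gene in the summed TPM of the 6 genes (stacked to 100%), 1 bar per library. Ms4a4c (red) took 7.59 to 21.3% in the 3 Tfh_TILS libraries and at most 3.96% in any culture library.

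Among the other MS4A genes and the related Tmem176a and Tmem176b, 11 of 15 passed the filter of a group mean of 1 TPM. With limma and Benjamini-Hochberg adjustment over all tested genes, 1 of the 11, Ms4a4a, rose in Tfh_TILS relative to Tfh_Vitro and 0 fell, beside 1.15% of all genes called higher and 0.944% called lower. By the same test 6 of the 11 had an unadjusted p under 0.05, all upward, beside 8.28% of all genes upward and 5.74% downward. Ms4a4a, the macrophage partner of dectin-1, was at 8.28, 78.5 and 26.8 TPM in Tfh_TILS, 4.28, 3.60 and 3.33 TPM in Tfh_OTII, 2.50, 2.72 and 3.08 TPM in Tfh_Vitro and 0.913, 1.29 and 0 TPM in Th1_Vitro. All Tfh_TILS libraries lay above all cultures, the log2 difference from Tfh_Vitro was 2.86 ± 0.58, and the limma adjusted p was 0.0231. That p ranged from 0.00101 to 0.122 over 18 alternatives and missed 0.05 in 6 of them, among these the fits without Tfh_TILS library 3 (0.0791) and without Tfh_Vitro library 1, 2 or 3 (0.108, 0.111 and 0.0736). Without Tfh_TILS library 2 the difference was 2.09 and the adjusted p was 0.0445.

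Ms4a14, which lies beside Ms4a7 in the cluster, was also above all cultures in Tfh_TILS. It was at 1.67, 5.01 and 1.98 TPM there and at most 1.10 TPM in the cultures, with an adjusted p of 0.163 by limma. The share of all genes that lay above all cultures, as Ms4a4a and Ms4a14 did, is not given here. Ms4a1, the B cell gene, was at 7.01, 2.78 and 10.2 TPM in Tfh_TILS and 1.72, 2.59 and 2.29 TPM in Tfh_Vitro, lowest in the Tfh_TILS library in which the members were highest, and did not pass limma's test (adjusted p = 0.195). In Tfh_OTII minus Tfh_Vitro 0 of the 11 passed limma's test in either direction, beside 0.987% of all genes called higher and 1.39% called lower, and 0 had an unadjusted p under 0.05, beside 7.16% of all genes upward and 6.08% downward. Ms4a8a, Tmem176a and Tmem176b averaged 4.13, 6.04 and 8.06 TPM in Tfh_TILS, against 1.52, 2.55 and 3.35 TPM in Tfh_Vitro, and none of these passed. Ms4a3, Ms4a5, Ms4a12 and Ms4a15 stayed below 3 TPM in the mean of every group.

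Against Th1_Vitro, Ms4a2 and Tmem176b rose in Tfh_Vitro as deposited and 0 of the 11 fell, beside 41.1% of all genes called higher and 0.511% called lower. Ms4a2 was at 3.32, 3.53 and 4.62 TPM in Tfh_Vitro and 0.959, 0.981 and 0.534 TPM in Th1_Vitro, with a log2 difference of 1.40 ± 0.32 and an adjusted p by limma of 0.00453. Tmem176b was at 2.54, 3.22 and 4.29 TPM in Tfh_Vitro and 0, 0.886 and 1.44 TPM in Th1_Vitro, with 1.37 ± 0.39 and 0.0150. On scaled values, where 9.15% of all genes were called higher and 5.61% lower, neither call held (adjusted p = 0.124 and 0.196 by limma), and Ms4a1 was called lower instead, at -1.31 ± 0.40 with an adjusted p of 0.0453.

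**Figure D4:**
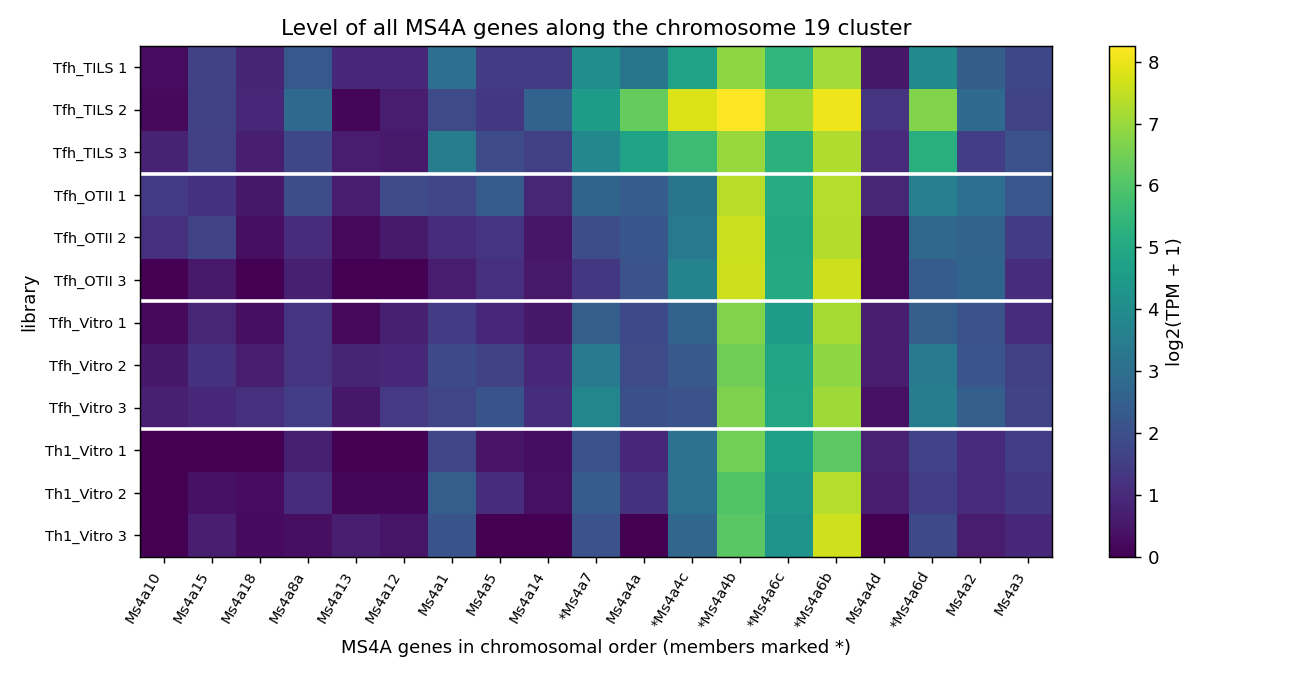
Level, as log2(TPM + 1), of the 19 MS4A genes in their order along chromosome 19 (columns, members marked with an asterisk) in the 12 libraries (rows). The high levels lie in the stretch around Ms4a4b and Ms4a6b in every library. Ms4a4a, Ms4a4c and Ms4a6d are higher in all 3 Tfh_TILS libraries than in any culture library, and the share of all genes that are so is not given here.

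Genes of MS4A partners and of receptor complexes were measured as a list of 10, of which 9 passed the filter. Besides receptors it held a phosphatase and a calcium channel, and it was chosen with earlier results of these data known. In Tfh_TILS minus Tfh_Vitro 2 of the 9 rose by limma's test and 0 fell, beside 1.15% of all genes called higher and 0.944% called lower. Both that rose belong to the myeloid receptors: Clec7a, which encodes dectin-1, and Fcer1g, the signalling chain shared by Fc receptors. Clec7a was at 24.6, 251 and 56.5 TPM in Tfh_TILS and 2.25, 2.44 and 2.26 TPM in Tfh_Vitro, with a log2 difference of 4.44 ± 0.60 and an adjusted p of 0.00369 by limma. Fcer1g was at 22.6, 244 and 49.3 TPM in Tfh_TILS and 5.18, 3.75 and 3.37 TPM in Tfh_Vitro, with 3.72 ± 0.66 and 0.0135. The count that rose was 1 to 4 over the alternatives. At an unadjusted p under 0.05 by limma, 4 of the 9 were upward and 1 downward, beside 8.28% and 5.74% of all genes. Clec7a and Fcer1g were highest in Tfh_TILS library 2 and lowest in library 1, the order that Ms4a4c, Ms4a6d and Ms4a4a also showed. Ms4a4b, Ms4a6b and the T cell list had this order too, so it did not set the myeloid genes apart. Clec7a and Vsig4 are also in the list of macrophage and monocyte markers below, where the same Clec7a call is counted again.

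Tnfrsf18, which encodes GITR, was at 114, 325 and 139 TPM in Tfh_TILS, 269, 260 and 280 TPM in Tfh_OTII, 208, 190 and 184 TPM in Tfh_Vitro and 55.8, 58.0 and 122 TPM in Th1_Vitro. In Tfh_OTII minus Tfh_Vitro 0 of the 9 passed limma's test, beside 0.987% of all genes called higher and 1.39% called lower. At an unadjusted p under 0.05, 1 of the 9 was upward, beside 7.16% of all genes. In Tfh_Vitro minus Th1_Vitro 2 of the 9 rose as deposited, Ptpn6 by 2.15 ± 0.34 and Tnfrsf18 by 1.39 ± 0.37 on the log2 scale (adjusted p = 0.000426 and 0.0106 by limma), a share below the 41.1% of all genes called higher. Ptpn6, the phosphatase SHP-1, averaged 283 ± 30.1 TPM in Tfh_Vitro and 65.6 ± 25.2 TPM in Th1_Vitro (SD, n = 3). On scaled values 1 of 8 was called higher in Tfh_Vitro, Ptpn6 (1.08 ± 0.31, adjusted p = 0.0331 by limma), and 1 lower, the calcium channel gene Orai1 (-1.15 ± 0.24, adjusted p = 0.00822). Of all genes, 9.15% were called higher and 5.61% lower on those values.

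Since Ms4a6d, Ms4a7 and Ms4a4a are known from myeloid cells, markers of other cell types were set beside them. These marker lists were chosen with earlier results of these data known. In bulk libraries fewer cells of a type and less RNA per cell cannot be told apart. Of 20 macrophage and monocyte markers, 8 rose in Tfh_TILS relative to Tfh_Vitro by limma's test and 0 fell. Beside them, 1.15% of all genes were called higher and 0.944% lower. The median log2 difference was 2.21 over the 20 markers, against 0.10 over all genes. The count of macrophage markers that rose was 4 without Tfh_TILS library 2 and 2 to 13 over all alternatives. The summed level of the list was 146, 1661 and 402 TPM in Tfh_TILS, 24.9 to 59.2 TPM in Tfh_OTII, 43.4 to 62.5 TPM in Tfh_Vitro and 18.1 to 20.0 TPM in Th1_Vitro. Lyz2, the lysozyme of myeloid cells, was at 34.1, 309 and 82.0 TPM in Tfh_TILS and 4.89, 2.23 and 3.68 TPM in Tfh_Vitro. Csf1r, the receptor that macrophages depend on, was at 2.51, 21.9 and 7.74 TPM in Tfh_TILS and 0.587, 0.967 and 1.11 TPM in Tfh_Vitro.

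Not every defining marker followed. Vsig4 and Cd163 averaged 1.12 and 1.28 TPM in Tfh_TILS, against 0.910 and 1.25 TPM in Tfh_Vitro, and none of the 20 markers was at 0 in all 3 libraries of a group. Of 6 neutrophil markers 0 passed limma's test in this comparison, with 3 at an unadjusted p under 0.05, although their sum was 7.57, 477 and 75.7 TPM in Tfh_TILS and 7.02 to 12.9 TPM in Tfh_Vitro. Of 8 dendritic cell markers Cd74 alone rose (2.55 ± 0.46, adjusted p = 0.0134 by limma), and 5 of the 8 had an unadjusted p under 0.05. Of 8 B cell markers 0 passed, with 3 at an unadjusted p under 0.05. Of 5 mast cell and basophil markers tested 0 passed, with 2 at an unadjusted p under 0.05. Of 4 NK and CD8 T cell markers tested, and of 12 T cell markers, 0 passed and 0 had an unadjusted p under 0.05. Of 12 epithelial, fibroblast and endothelial markers 0 passed by limma, with 1 at an unadjusted p under 0.05. In these lists every marker with an unadjusted p under 0.05 was upward in Tfh_TILS. Of all genes, 8.28% were upward and 5.74% downward at that threshold by limma.

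The members differed in how closely they kept to these markers from library to library. Between Tfh_TILS libraries 2 and 1 the macrophage list changed 11.4-fold, Ms4a4a 9.47-fold, Ms4a4c 8.38-fold and Ms4a6d 7.25-fold, whereas Ms4a6c changed 3.16-fold, Ms4a4b 2.64-fold, Ms4a6b 1.91-fold and Ms4a7 1.45-fold. The T cell list changed 1.71-fold between the same libraries. Between libraries 2 and 3 the macrophage list changed 4.13-fold, Ms4a4c 4.54-fold, Ms4a6c 3.53-fold, Ms4a6d and Ms4a4a 2.93-fold, and Ms4a4b 2.41-fold. There Ms4a6b changed 1.72-fold, Ms4a7 1.66-fold and the T cell list 1.60-fold. On this pair Ms4a6c thus changed more than Ms4a6d and Ms4a4a. Ms4a6d, itself not in the macrophage list, stood at 6.18 to 9.71% of the list's sum in Tfh_TILS and 13.7 to 18.2% in Tfh_OTII. It stood at 10.8 to 20.2% in Tfh_Vitro and 9.56 to 14.3% in Th1_Vitro. This was a narrow band beside the range of its level, but all Tfh_TILS values lay below all Tfh_OTII and Tfh_Vitro values. The list sums behind the culture ratios were low, at 18.1 to 62.5 TPM. On the same ratio Ms4a4c, at 12.2 to 18.3% in Tfh_TILS, lay within the culture range of 5.29 to 47.5%. Ms4a6c was at 8.13 to 29.3% in Tfh_TILS and 48.3 to 129% in the cultures. Ms4a7 stood at 10.6, 1.35 and 3.36% of the list in the 3 Tfh_TILS libraries and so did not keep to it.

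In the 9 culture libraries 10 of the 20 macrophage markers stayed below 2 TPM, among them Csf1r (at most 1.62 TPM), Adgre1, which encodes F4/80 (at most 0.875 TPM), and C1qa (at most 0.799 TPM). The other 10 reached 2 TPM or more in at least 1 culture library, with the highest values for Itgam, an integrin of myeloid cells (12.5 TPM), the chemokine receptor gene Ccr2 (12.5 TPM) and Lyz2 (10.6 TPM). In the same libraries Ms4a6c was at 18.1 to 33.5 TPM, above the highest value of each marker, whereas Ms4a4c, at 3.31 to 11.8 TPM, lay within their range. The Tfh_TILS libraries had all macrophage sums above the cultures, and the part of these markers in the Tfh_TILS levels of the 6 genes was not tested.

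**Figure D5:**
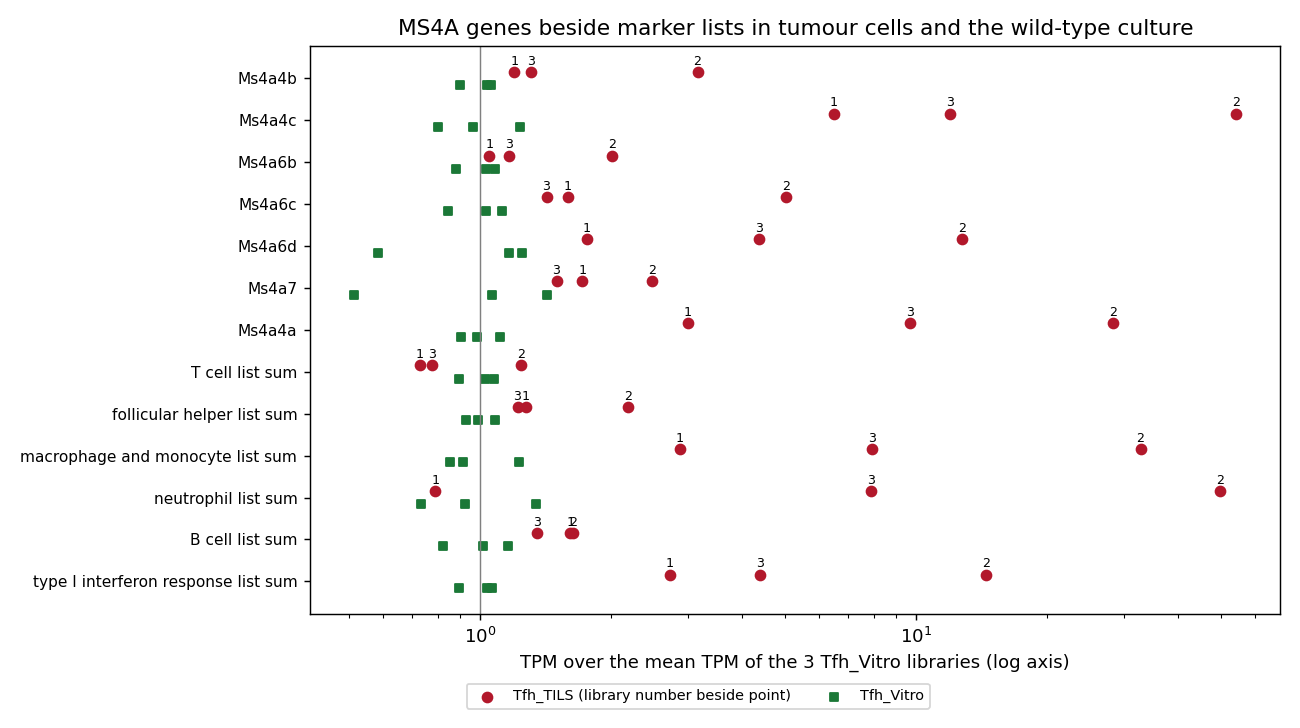
Level of the members, Ms4a4a and the summed marker lists in each Tfh_TILS library (red, numbered) and each Tfh_Vitro library (green), as a multiple of the Tfh_Vitro mean on a log axis. Ms4a4c, Ms4a6d and Ms4a4a spread over the 3 Tfh_TILS libraries in the order 1, 3 and 2, as the macrophage, neutrophil and interferon lists do. Ms4a4b, Ms4a6b and the T cell list keep the same order over a narrower range, and Ms4a7 stays between 1.50 and 2.48.

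Ms4a4c is known in the mouse as a gene that interferon raises, so it was also set beside a list of 14 type I interferon response genes. This list too was chosen with earlier results of these data known. All 14 rose in Tfh_TILS relative to Tfh_Vitro by limma's test, beside 1.15% of all genes called higher. Their median log2 difference was 3.13, against 0.10 over all genes. The count of interferon genes that rose was 10 without Tfh_TILS library 2 and 5 to 14 over all alternatives. Ifit3 rose by 5.40 ± 0.63 (adjusted p = 0.00184 by limma), Rsad2 by 5.28 ± 0.85 (0.00818) and Irf7, the factor that amplifies the response, by 4.48 ± 0.68 (0.00593). Ifit3 was at 48.7, 615 and 144 TPM in Tfh_TILS and 1.97, 2.72 and 4.35 TPM in Tfh_Vitro. The list summed to 1050, 5569 and 1693 TPM in Tfh_TILS, 279 to 284 TPM in Tfh_OTII, 345 to 411 TPM in Tfh_Vitro and 137 to 321 TPM in Th1_Vitro.

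Ms4a4c stood at 2.54 to 4.02% of that sum in Tfh_TILS, 2.98 to 4.16% in Tfh_OTII, 0.828 to 1.24% in Tfh_Vitro and 1.76 to 5.76% in Th1_Vitro. Tfh_TILS, Tfh_OTII and Th1_Vitro thus overlapped on this ratio, and all their libraries were above Tfh_Vitro. In Tfh_OTII minus Tfh_Vitro, where Ms4a4c was higher without overlap, 0 of the 14 interferon genes passed limma's test. Of the 14, 2 had an unadjusted p under 0.05, both downward, beside 6.08% of all genes downward. The interferon, macrophage and T cell lists were all highest and lowest in the same Tfh_TILS libraries as Ms4a4c. The parts of the interferon and macrophage lists in its level were not tested apart.

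The genes whose levels were most like each member over the 12 libraries were looked up among 16949 protein-coding genes, by Pearson's r on log2(TPM + 1). The libraries share groups, and Tfh_TILS library 2 held the highest Tfh_TILS value of every member, so r describes these libraries only. For Ms4a6d the 5 nearest were App, Pdpn, Rbm47, Fam129b and Anxa4, with r of 0.98 to 0.99. For Ms4a6c they were Upp1 (r = 0.98), Aph1c, Sgms2, Acta1 and C1qa (0.96), the last a complement gene of macrophages. C1qa was low, at 0.658, 6.10 and 1.06 TPM in Tfh_TILS and at most 0.799 TPM in any culture library. It did not pass limma's test in Tfh_TILS minus Tfh_Vitro (adjusted p = 0.263). For Ms4a4c they were Cd164 and Ptgs2 (both 0.95), Ifi207, Pilrb1 and Acod1, of which Ptgs2 (cyclooxygenase-2) averaged 53.2 TPM in Tfh_TILS and 0.898 TPM in Tfh_OTII.

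The T cell members had other neighbours. For Ms4a4b the nearest were Rp2 and Cript (both 0.95), Sestd1, Cdkl3 and Zfp677 (0.94), and for Ms4a6b they were Gmppb (0.90), Ly6a, Usb1, Ptrh2 and Vps37c (0.87). For Ms4a7 they were Ctnnd2 (0.97), the olfactory receptor gene Olfr410, the vomeronasal receptor gene Vmn1r206, Arnt2 and the chemokine gene Cxcl9 (0.96). Between members r was highest for Ms4a6c with Ms4a6d (0.90) and with Ms4a4c (0.89), it was 0.50 for Ms4a4b with Ms4a6b, and it was lowest for Ms4a6b with Ms4a7 (0.14).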

How the data were processed

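RNA of 300000 CD4+ T cells per sample was sequenced as paired reads of 75 bases from stranded, ribosome-depleted total RNA libraries, per the labels' protocols. The authors deposited 1 table of TPM per library, which sums to 1e+06. The submitters' processing notes name kallisto and mm10; the kallisto version and the annotation are not given in the sources used here. Read numbers are unknown, so no interval from counting can be given, and transcripts of near copies may be split among them.

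From the deposited TPM, group means on log2(TPM + 1) were compared with limma 3.58.1 (R 4.3.3, mean-variance trend, all 12 libraries in 1 fit, 1 mean per group), with Benjamini-Hochberg adjustment over the 23308 genes with a group mean of at least 1 TPM and a threshold of 0.05. The code was tested on simulated data. Members got no p. The 3 comparisons were Tfh_TILS and Tfh_OTII, each minus Tfh_Vitro, and Tfh_Vitro minus Th1_Vitro. "No overlap" means that every library of a group lies above every library of the other. Alternatives were median-of-ratios scaling (17585 genes above 0 in all libraries), a pseudocount of 0.1, no filter or 5 TPM, a fit of just the pair of groups in question, a fit blocked on replicate number, and each library left out. Promoters came from RefSeq and gene positions from GENCODE M21.

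The members, lists and alternatives were chosen with earlier results of these data known. Named genes are the members, MS4A relatives with a group mean of at least 1 TPM, up to 3 called genes per list and comparison with the largest differences, markers a result turns on, and the 5 genes most like each member. Protein-coding genes for that search were taken from the annotation's gene type, since no protein table was used here. Files of other series were not used.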

Additional observations from a re-analysis of the deposited data

How the results depend on the processing

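Of the 18 log2 differences of members, those from Tfh_Vitro in Tfh_TILS kept their sign under all alternatives run. Ms4a6d in Tfh_OTII minus Tfh_Vitro changed sign without Tfh_OTII library 3 (0.05, against -0.21), and Ms4a4b, Ms4a6b and Ms4a6c moved to -0.69, -1.10 and -0.73 in Tfh_Vitro minus Th1_Vitro under scaling. The Ms4a6b difference there, -0.03, ran from -0.47 to 0.27 with 1 library left out and was positive without Tfh_Vitro library 2 or Th1_Vitro library 2 or 3. Scaling moved the members without overlap to 2 higher and 1 lower in Tfh_OTII minus Tfh_Vitro and to 1 higher and 4 lower in Tfh_Vitro minus Th1_Vitro; there it left 2004 genes called higher and 1228 lower, and 0 other MS4A genes higher and 1 lower. With a pseudocount of 0.1, limma called 147 genes higher and 115 lower in Tfh_TILS minus Tfh_Vitro (against 269 and 220), 133 higher in Tfh_OTII minus Tfh_Vitro (against 230), and 0 and 6 other MS4A genes higher in the Tfh_TILS and Th1_Vitro comparisons. Without a filter 175 genes were higher in Tfh_TILS. With only the 2 groups in the fit, 129 were higher in Tfh_TILS (0 other MS4A genes), 2215 higher and 642 lower in Tfh_OTII (against 230 and 325), and 5 other MS4A genes were higher against Th1_Vitro. Leaving out 1 library gave 52 to 677 genes higher and 42 to 551 lower in Tfh_TILS, 77 to 599 and 67 to 443 in Tfh_OTII, and 6249 to 10257 and 69 to 173 in Tfh_Vitro minus Th1_Vitro. Members without overlap then numbered 5 to 6 higher in Tfh_TILS, 4 higher and 0 to 1 lower in Tfh_OTII, and 2 to 4 higher and 1 to 2 lower against Th1_Vitro, beside 14.5 to 24.9% of all genes higher in Tfh_TILS, 22.3 to 27.9% higher and 8.80 to 20.7% lower in Tfh_OTII, and 56.8 to 69.5% higher and 0.875 to 2.50% lower against Th1_Vitro. Other MS4A genes called higher numbered 0 to 1 in Tfh_TILS and 1 to 4 against Th1_Vitro. The cause of these shifts was not tested. Deviations of libraries with the same replicate number correlated at -0.386 to 0.303 over 18 pairs, and with different numbers at -0.277 to 0.358 over 36 pairs, so the numbers were not taken to pair libraries; with it as a replicate block, 160 genes were called higher and 119 lower in Tfh_TILS and 150 higher in Tfh_OTII. With read numbers unknown, levels near 1 TPM are the least certain.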
